A study of Mus musculus with 12 samples.

Results

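The erythroid regulators and globins are 10 genes, found in the deposited expression table by their gene symbols. They are Klf1, Gata1, Gfi1b, Epor, Hbb-bt, Hbb-bs, Hba-a1, Hba-a2, Car1 and Car2, each on 1 of the 46986 features of the table. Of the 10 genes, 9 had at least 1 RPKM (reads scaled by the length of the gene and by library size) in at least 3 libraries and were tested among the 8553 genes past that filter. Car1 fell under the filter and is described by its values.

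Gata1 and Klf1 are transcription factors that switch on most genes of the red cell program, including the globin genes. Gfi1b is a repressor that red cell and megakaryocyte precursors need, and Epor is the receptor through which erythropoietin keeps red cell precursors alive and dividing. The globin chains form hemoglobin, and Car1 and Car2 are carbonic anhydrases that interconvert carbon dioxide and bicarbonate. Hematopoietic stem cells (HSCs) carry low levels of several lineage regulators, and the full program is switched on only in committed erythroid cells.

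The RNA came from HSCs of C57BL/6 mice aged 12 weeks, sorted from bone marrow, in 12 libraries, 3 in each of 4 groups. ABX 5-FU mice had vancomycin, ampicillin, metronidazole and neomycin in their water over 4 to 6 weeks and were sampled on day 12 after 200 mg/kg of 5-fluorouracil (5-FU), an antimetabolite that kills dividing cells, given into a vein. ABX mice had the antibiotics alone, Ctrl 5-FU mice had 5-FU alone, and Ctrl mice had neither. Each library was made from 2000 sorted cells. How the sort was gated is not given in the sources used here. Nothing in the labels ties each library to an animal of its own, and the p-values therefore rest on library-to-library spread, which may be technical. Each i7 library index was shared by 1 ABX and 1 Ctrl library of the same 5-FU state, so 5-FU and the index cannot be told apart. In what follows, levels are mean ± SD in RPKM over n = 3 libraries, and changes are log2 differences of RPKM + 1 ± SE from 1 limma fit over all 12 libraries, adjusted over the 8553 genes (Benjamini-Hochberg) and called at an adjusted p of 0.05.

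The estimated depth was 28.0 to 55.1 M reads a library, and it was 29.5 to 38.1 M in ABX against 44.5 to 55.1 M in Ctrl. The sum of 10 HSC markers (such as Procr, Ly6a and Kit) was 172 to 192 RPKM in ABX 5-FU against 100.2 to 134 RPKM in ABX, and 191 to 208 RPKM in Ctrl 5-FU against 126 to 134 RPKM in Ctrl. Most of that difference was Ly6a, at 108 ± 12.8 RPKM in ABX 5-FU against 46.4 ± 12.3 RPKM in ABX and 127 ± 8.72 RPKM in Ctrl 5-FU against 61.6 ± 5.33 RPKM in Ctrl. On average after 5-FU, 5 of the 8 tested markers were called higher, where 20.2% of all genes were. Besides Ly6a these were Procr (0.52), Slamf1 (0.72), Hoxb5 (0.78) and Mllt3 (0.42), the last of which reached 1 RPKM in 5-FU libraries only. Kit was not called (-0.06 ± 0.07 on average) and Cd34 was lower (-0.67 ± 0.14, adjusted p = 0.00250). The sum of 10 neutrophil and monocyte markers was 139 to 165 RPKM in ABX 5-FU against 112 to 142 RPKM in ABX, and 151 to 437 RPKM in Ctrl 5-FU against 138 to 154 RPKM in Ctrl. The sum of 8 T and NK cell markers was 31.8 to 37.7 RPKM in ABX 5-FU against 24.0 to 27.8 RPKM in ABX, and 39.0 to 55.0 RPKM in Ctrl 5-FU against 25.0 to 39.4 RPKM in Ctrl. It was nearly all Nkg7 (0.26 ± 0.12 after 5-FU on average, not called) and Klrb1c (1.89 ± 0.10, adjusted p = 5.087e-07), and the T cell genes Cd3e and Cd3g were at 0 in all 12 libraries. Its part in the results was not tested. Sums of B cell and macrophage markers were 9.90 to 15.8 and 3.78 to 27.6 RPKM. Some libraries stood apart. Ctrl replicate 1 and ABX 5-FU replicate 3 had by far the highest Hbb-bs and alpha globin values. Ctrl 5-FU replicate 3 had the highest sum of neutrophil and monocyte markers, 437 RPKM against 112 to 251 RPKM in the other 11 libraries. Ctrl 5-FU replicate 1 had the highest sum of 14 megakaryocyte genes, 470 RPKM against 138 to 224 RPKM in the other 11 libraries (its platelet chemokine gene Pf4 was at 309 RPKM). The sum of 8 stroma and endothelium markers was 34.0 RPKM in ABX 5-FU replicate 1 and 17.3 RPKM in Ctrl 5-FU replicate 1, and it was 1.76 to 7.29 RPKM in the other 10. The part of these libraries in the results was tested only by leaving them out. In sorted populations such as these, fewer cells of a type and less RNA per cell cannot be told apart.

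The adult globin genes come in near-identical copies, and the sequences that separate the copies are shown because every globin value below depends on them. Hbb-bt (mm10, chr7:103812524-103813996, minus strand) and Hbb-bs (chr7:103826534-103828096, minus strand) are the adult beta globin genes of this strain, each with 3 exons. Their coding sequences of 444 bases differ at 1 base and encode the same 147 residues. Hba-a1 (chr11:32283511-32284465, plus strand) and Hba-a2 (chr11:32296489-32297298, plus strand) are the adult alpha globin genes, with coding sequences of 429 bases that differ at 1 base and encode the same 142 residues. The coding windows of 61 bases around each difference follow, from GENCODE M21 transcripts, with the differing base in capitals. They span coding bases 384 to 444 of the beta genes and 351 to 411 of the alpha genes, counted from 1 at the start codon.
Hbb-bt: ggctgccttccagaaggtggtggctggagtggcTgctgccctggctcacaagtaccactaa
Hbb-bs: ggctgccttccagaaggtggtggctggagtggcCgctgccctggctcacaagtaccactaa
Hba-a1: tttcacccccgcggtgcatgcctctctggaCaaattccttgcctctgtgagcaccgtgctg
Hba-a2: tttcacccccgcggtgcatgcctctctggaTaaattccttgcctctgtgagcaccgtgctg

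Outside these bases the annotated transcripts of a pair differ in their untranslated ends. Of all stretches of 50 bases in the Hbb-bt transcript, 41.7% were absent from the annotated transcript of Hbb-bs. The share was 34.2% the other way. For the alpha genes the shares were 32.5% in Hba-a1 and 13.1% in Hba-a2. They depend on how far the annotation reaches. Before the coding sequence it holds 196 bases in Hba-a1 against 35 in Hba-a2, and 127 in Hbb-bt against 53 in Hbb-bs. Stretches absent from the other transcript may still lie beside it in the genome, which was not searched for them. The rule by which reads matching both copies were counted is not given in the labels, so the split of reads between the copies of a pair is uncertain.

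The promoters of the beta globin genes are less alike than their coding sequences, while those of the alpha globin genes are the same, and they are shown for that contrast beside that of Klf1. The 120 bases before the RefSeq start (GRCm38.p6, the build also called mm10) are given with matches on either strand to 3 motifs in capitals. The GATA motif was searched as AGATAA, which the GATA factors bind, as its close relative TGATAA, and as the forms of both that end in G (AGATAG in the case of the first, and TGATAG in that of the other). The CACCC box, which Klf1 binds, and the CCAAT box were searched as those letters.
Klf1 (chr8:84901862-84901981, plus strand): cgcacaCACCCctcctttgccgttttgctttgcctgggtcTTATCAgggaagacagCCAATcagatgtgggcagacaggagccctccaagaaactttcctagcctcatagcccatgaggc
Hbb-bt (chr7:103813924-103814043, minus strand): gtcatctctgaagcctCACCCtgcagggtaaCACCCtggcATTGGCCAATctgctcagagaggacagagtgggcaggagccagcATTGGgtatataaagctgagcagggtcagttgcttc
Hbb-bs (chr7:103827929-103828048, minus strand): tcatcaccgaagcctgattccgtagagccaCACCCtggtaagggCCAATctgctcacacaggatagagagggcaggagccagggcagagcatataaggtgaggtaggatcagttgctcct
Hba-a1 (chr11:32283552-32283671, plus strand): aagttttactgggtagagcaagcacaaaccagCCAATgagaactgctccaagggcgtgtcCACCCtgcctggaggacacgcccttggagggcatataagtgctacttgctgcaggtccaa

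The windows of Hbb-bt and Hbb-bs were identical at 91 of 118 aligned bases, or 77.1%, and those of Hba-a1 and Hba-a2 at all 117 aligned bases. Gene models in the expression table begin upstream of the RefSeq start for Klf1 and the globin genes, so these windows overlap the table's models. Over the full 250 bases before the start, Hbb-bt held 3 CACCC and 3 CCAAT matches and no GATA match, whereas Hbb-bs held 1 of each. Klf1 held 1 of each, and both alpha genes held 1 GATA, 2 CACCC and 1 CCAAT match. Of the other regulators, Gfi1b held 1 of each, Epor 1 GATA and 2 CACCC matches, and Gata1 2 CACCC matches. Among 32851 promoters of the same length, 26.5% held the GATA motif, 52.0% CACCC, 33.8% CCAAT and 11.8% both GATA and CACCC. A match describes these letters and not a bound site. The RefSeq promoter table held 8 of the 10 genes, without Car1 and Car2.

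After 5-FU the libraries of sorted HSCs held more Gata1 and Hbb-bt RNA and less Car2 RNA, both with and without antibiotics. With antibiotics, Klf1 and Epor were also called higher and Gfi1b lower. The comparison asks how HSCs on day 12 of recovery from 5-FU differ from those of mice without it. In ABX 5-FU against ABX, 6 of the 9 tested genes were called, where 30.2% of all 8553 genes were, and the groups did not overlap for 9 of 9, where they did not for 49.9% of all genes. In Ctrl 5-FU against Ctrl, 3 of the 9 were called, where 21.6% of all genes were, and the groups did not overlap for 5 of the 9, where they did not for 37.0% of all genes. Averaged over both antibiotic states, 6 of the 9 were called, where 43.6% of all genes were. Among all genes, 1175 were higher and 1411 lower in ABX 5-FU against ABX (2137 and 746 in TPM), and 833 were higher and 1013 lower in Ctrl 5-FU against Ctrl (1889 and 441 in TPM).

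Gata1 (chrX:7959260-7978071, minus strand), a zinc finger factor that is the central activator of red cell and megakaryocyte genes, was low in every group. It was at 3.04, 2.49 and 2.97 RPKM in the ABX 5-FU libraries, against 0.622, 0.478 and 0.560 RPKM in the ABX libraries. In the Ctrl 5-FU libraries it was at 5.57, 3.18 and 2.95 RPKM, against 2.15, 1.10 and 1.29 RPKM in the Ctrl libraries. All 5-FU libraries lay above all libraries without 5-FU. The change was 1.30 ± 0.19 (adjusted p = 0.000835) in ABX 5-FU against ABX and 0.95 ± 0.19 (adjusted p = 0.00641) in Ctrl 5-FU against Ctrl, and its average of 1.12 ± 0.13 (adjusted p = 0.000104) was called under every alternative tried. The difference between the changes, 0.35 ± 0.27, was not called (adjusted p = 0.740).

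Klf1 (chr8:84901928-84905295, plus strand), the zinc finger factor that binds CACCC boxes of the beta globin promoter, differed both with 5-FU and with antibiotics. Its level was 1.80, 1.89 and 2.89 RPKM in ABX 5-FU against 0.889, 0.376 and 0.547 RPKM in ABX. It was 8.71, 3.58 and 3.40 RPKM in Ctrl 5-FU against 2.903, 2.39 and 3.23 RPKM in Ctrl. The 5-FU libraries were above those without 5-FU within each antibiotic state, and the high value of 8.71 RPKM is that of the library with the most megakaryocyte RNA. The change was 0.99 ± 0.26 (adjusted p = 0.0158) in ABX 5-FU against ABX and 0.60 ± 0.26 (adjusted p = 0.122, not called) in Ctrl 5-FU against Ctrl, where it was 0.23 (adjusted p = 0.332) without Ctrl 5-FU replicate 1. Without ABX replicate 2 the change with antibiotics was 0.88 (adjusted p = 0.0646), and without ABX 5-FU replicate 3 it was 0.84 (adjusted p = 0.0618), and with no filter it was not called either (adjusted p = 0.0703). The average over both states, 0.80 ± 0.19 (adjusted p = 0.00541), was called in every alternative, from 0.61 to 1.34. By the estimated depth, which is rough, the ABX values rest on few reads, about 42.5, 16.9 and 31.9. Their counting error was not estimated.

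Gfi1b (chr2:28609450-28621982, minus strand), the repressor, moved the other way from Gata1. It was at 6.40, 7.04 and 8.29 RPKM in ABX 5-FU against 10.3, 9.29 and 10.7 RPKM in ABX, with no overlap. It was at 9.90, 10.5 and 8.03 RPKM in Ctrl 5-FU against 12.4, 13.1 and 10.4 RPKM in Ctrl, where the groups overlapped. The change was -0.43 ± 0.12 (adjusted p = 0.0176) with antibiotics and -0.31 ± 0.12 (adjusted p = 0.0812, not called) without them. The first was not called on values rescaled to a common total per library (TPM; -0.31, adjusted p = 0.0953), without ABX replicate 3 (-0.40, adjusted p = 0.0510), or without ABX 5-FU replicate 1 (-0.36, adjusted p = 0.0667) or replicate 2 (-0.42, adjusted p = 0.0569), nor with no filter (adjusted p = 0.0569). The average, -0.37 ± 0.08 (adjusted p = 0.00434), lost its call only in TPM (-0.23, adjusted p = 0.0592), a scale on which the median gene was 0.162 higher after 5-FU.

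Epor (chr9:21958899-21963576, minus strand), the erythropoietin receptor, was at 9.14, 4.76 and 6.82 RPKM in ABX 5-FU against 2.70, 2.91 and 2.23 RPKM in ABX. Its level was 13.7, 5.28 and 4.31 RPKM in Ctrl 5-FU against 3.77, 2.12 and 3.40 RPKM in Ctrl. The groups did not overlap in either state, and the 2 highest libraries, Ctrl 5-FU replicate 1 and ABX 5-FU replicate 1, are those with the most stroma and endothelium marker RNA. Leaving out both, the average change was 0.71, against 1.03 ± 0.23 (adjusted p = 0.00470) with all libraries, and remained called. The change was 1.10 ± 0.33 (adjusted p = 0.0290) in ABX 5-FU against ABX and 0.97 ± 0.33 (adjusted p = 0.0580, not called) in Ctrl 5-FU against Ctrl. The call with antibiotics was lost without any 1 of ABX replicates 1, 2 and 3 or ABX 5-FU replicates 1 and 3, with adjusted p-values of 0.0601 to 0.0972, and with no filter (adjusted p = 0.110). The change without antibiotics was called in TPM (1.31, adjusted p = 0.0220), with a minimum of 5 RPKM (0.97, adjusted p = 0.0413) and without Ctrl 5-FU replicate 3 (1.25, adjusted p = 0.0393). Without Ctrl 5-FU replicate 1 it was 0.52 (adjusted p = 0.120).

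**Figure D1:**
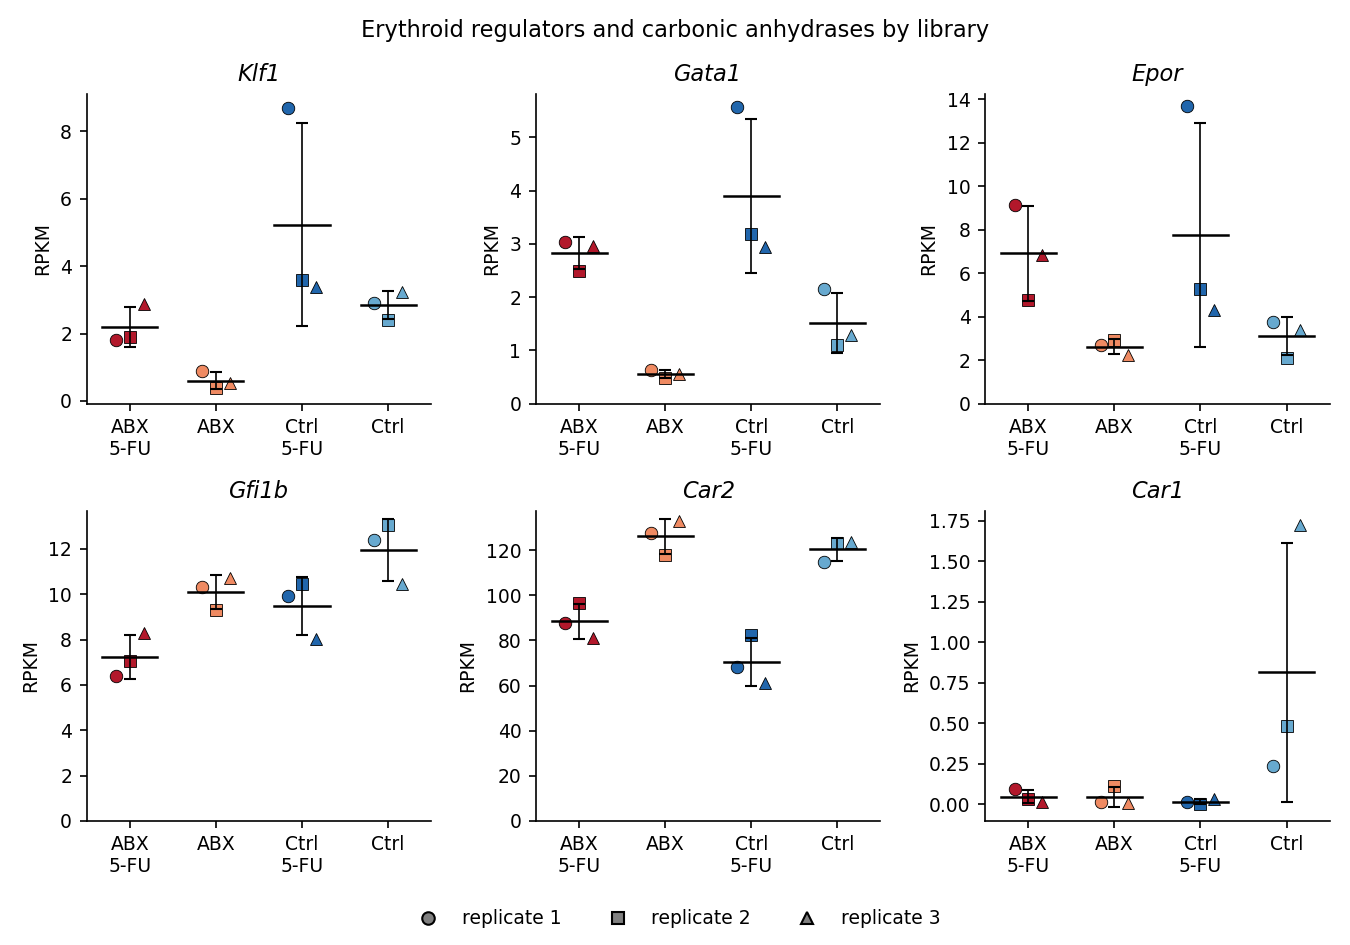
RPKM of the factors Klf1, Gata1 and Gfi1b, the receptor Epor and the carbonic anhydrases Car1 and Car2 in each library of the 4 groups (points, shaped by replicate), with the group mean (line) and SD (bars, n = 3). Gata1, Klf1 and Epor lie higher and Gfi1b and Car2 lower after 5-FU, and Klf1 is lowest in ABX (0.376 to 0.889 RPKM).

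Among the adult globins, Hbb-bt had the highest RPKM in 11 of the 12 libraries, all but Ctrl replicate 1, and it was the only one called in both 5-FU comparisons. It was at 132, 119.8 and 159 RPKM in ABX 5-FU against 25.2, 40.8 and 37.7 RPKM in ABX. It was at 99.3, 121 and 102 RPKM in Ctrl 5-FU against 53.6, 11.3 and 24.5 RPKM in Ctrl. Every 5-FU library lay above every library without 5-FU. The change was 1.97 ± 0.40 (adjusted p = 0.00455) in ABX 5-FU against ABX and 2.07 ± 0.40 (adjusted p = 0.00586) in Ctrl 5-FU against Ctrl. Their average of 2.02 ± 0.28 (adjusted p = 0.000279) was called under every alternative, from 1.75 to 2.29.

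Hbb-bs, the second adult beta gene, had a different pattern. Its level was 11.6, 16.4 and 99.8 RPKM in ABX 5-FU against 3.53, 5.09 and 2.43 RPKM in ABX, and 15.0, 30.6 and 11.4 RPKM in Ctrl 5-FU against 55.8, 3.77 and 3.98 RPKM in Ctrl. The highest values were those of ABX 5-FU replicate 3 and Ctrl replicate 1, so the groups overlapped without antibiotics and did not with them. The change was 2.62 ± 0.94 (adjusted p = 0.0542) with antibiotics and 0.74 ± 0.94 (adjusted p = 0.601) without, and neither was called. The change with antibiotics was called with a pseudocount of 0.1 (2.89, adjusted p = 0.0476) or 0.01 (2.92, adjusted p = 0.0471), in TPM (3.04, adjusted p = 0.0355), with a minimum of 5 RPKM (adjusted p = 0.0391), without Ctrl replicate 1 (adjusted p = 0.0141) and without ABX 5-FU replicate 1 (3.20, adjusted p = 0.0452).

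The alpha genes had their highest values in the same libraries as Hbb-bs. Hba-a1 was at 5.99, 16.9 and 108 RPKM in ABX 5-FU against 3.47, 4.38 and 1.13 RPKM in ABX, and at 17.6, 26.4 and 8.12 RPKM in Ctrl 5-FU against 74.0, 3.37 and 2.34 RPKM in Ctrl. Hba-a2 was at 6.99, 19.4 and 132 RPKM in ABX 5-FU against 4.25, 4.58 and 0.908 RPKM in ABX, and at 25.6, 42.5 and 14.5 RPKM in Ctrl 5-FU against 114, 5.60 and 3.90 RPKM in Ctrl. The groups of both genes overlapped without antibiotics only. Neither was called: in ABX 5-FU against ABX, the log2 difference was 2.68 ± 1.16 for Hba-a1 (adjusted p = 0.09995) and, for Hba-a2, 2.87 ± 1.19 (adjusted p = 0.0884), and in Ctrl 5-FU against Ctrl the values were 0.70 ± 1.16 (adjusted p = 0.696) and 0.76 ± 1.19 (adjusted p = 0.678).

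**Figure D2:**
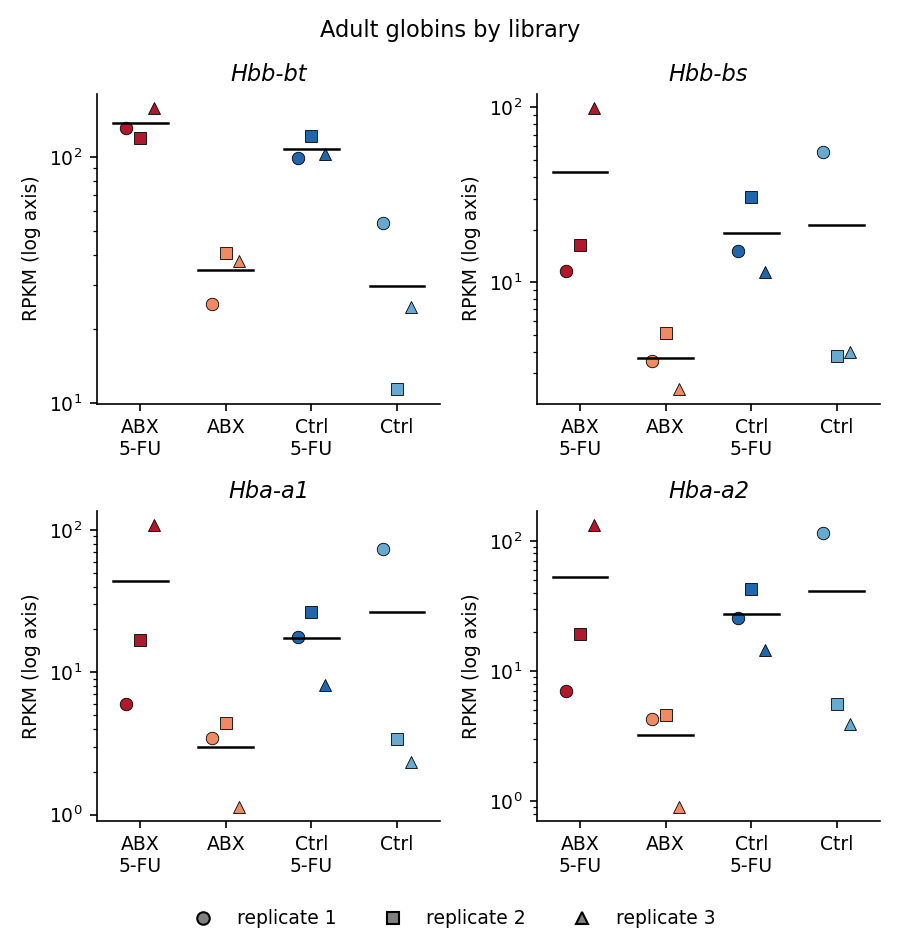
RPKM of the 4 adult globin genes on log axes in each library of the 4 groups (points, shaped by replicate), with the group mean as a line. Hbb-bt separates the 5-FU libraries (99.3 to 159 RPKM) from the others (11.3 to 53.6 RPKM), while Ctrl replicate 1 and ABX 5-FU replicate 3 lead the other 3 genes.

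The pair of libraries was left out as an alternative chosen after their values were seen. Without Ctrl replicate 1 and ABX 5-FU replicate 3, all 4 adult globins were called higher after 5-FU on average. Hbb-bs was then 1.81 ± 0.26 higher (adjusted p = 0.00133), Hba-a1 1.86 ± 0.39 (adjusted p = 0.00671) and Hba-a2 1.97 ± 0.41 (adjusted p = 0.00647). With all libraries the averages were 1.68 ± 0.66 for Hbb-bs (adjusted p = 0.0595), 1.69 ± 0.82 for Hba-a1 (adjusted p = 0.116) and 1.81 ± 0.84 for Hba-a2 (adjusted p = 0.101). Within the single comparisons, leaving out the pair gave calls for Hbb-bs in ABX 5-FU against ABX (1.70, adjusted p = 0.0130), and for Hbb-bs (1.92, adjusted p = 0.0148), Hba-a1 (2.13, adjusted p = 0.0380) and Hba-a2 (2.20, adjusted p = 0.0393) in Ctrl 5-FU against Ctrl. Leaving out Ctrl replicate 1 alone also gave 4 called globins on average, and calls for Hba-a1 (adjusted p = 0.0342) and Hba-a2 (adjusted p = 0.0304) in ABX 5-FU against ABX. Leaving out ABX 5-FU replicate 3 alone lowered the averages to 1.22 for Hbb-bs, 1.14 for Hba-a1 and 1.25 for Hba-a2, none of them called. Of the 12 omissions of single libraries, the average was not called in 10 for Hbb-bs and in 11 for each alpha gene.

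The ratio of the beta copies varied more than that of alpha globin to Hbb-bs. Summed alpha globin was 0.840 to 3.37 times Hbb-bs over the 12 libraries, although Hbb-bs itself ran from 2.43 to 99.8 RPKM. Hbb-bt was 0.961 to 15.5 times Hbb-bs. Hbb-bt made up 91.9%, 88.0% and 61.4% of adult beta globin RPKM in ABX 5-FU against 87.7%, 88.9% and 93.9% in ABX, and 86.9%, 79.8% and 89.96% in Ctrl 5-FU against 49.0%, 75.0% and 86.0% in Ctrl. Its lowest shares were in the same pair of libraries that led the other globins. Hba-a2 took 44.5% to 55.0% of alpha globin RPKM in the ABX and ABX 5-FU libraries. In the Ctrl and Ctrl 5-FU libraries it took 59.3% to 64.1%, without overlap. That separation was not tested, has no background beside it, and rests on the uncertain split of reads between the copies. The sum of the 4 adult globins was 275.9 ± 194 RPKM in ABX 5-FU against 44.5 ± 9.38 RPKM in ABX, and 172 ± 43.7 RPKM in Ctrl 5-FU against 119 ± 155 RPKM in Ctrl.

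**Figure D3:**
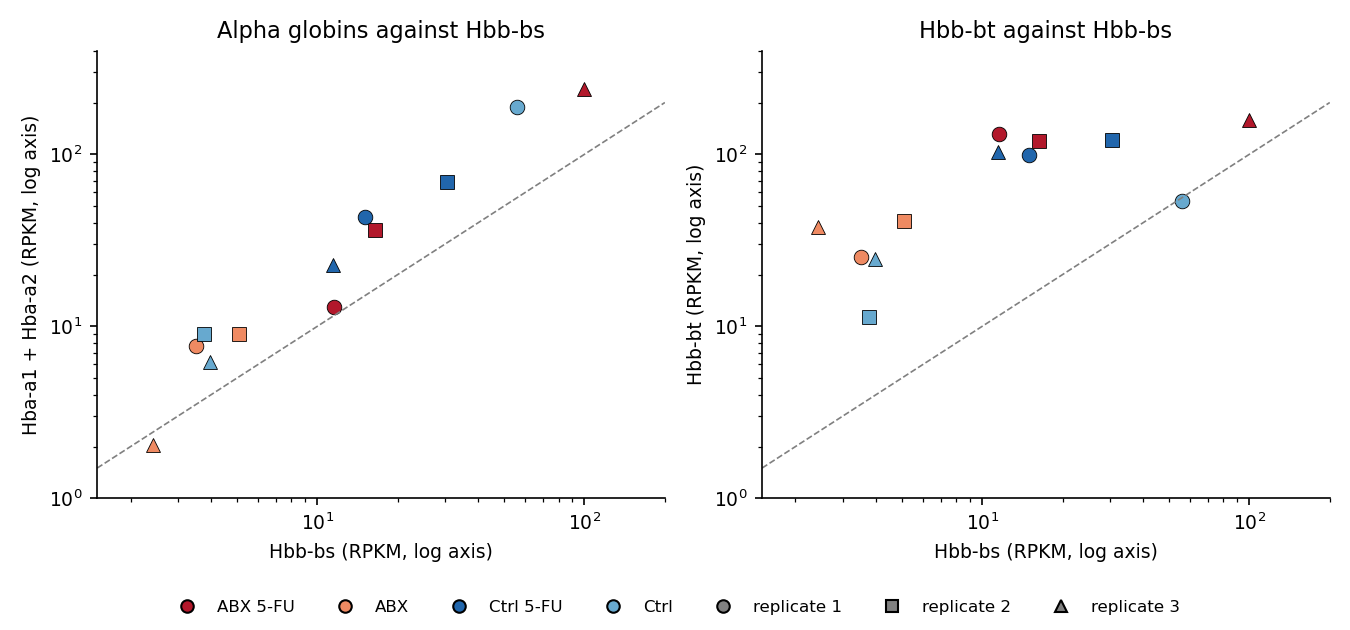
Summed alpha globin (left) and Hbb-bt (right) against Hbb-bs in RPKM on log axes, 1 point per library, coloured by group and shaped by replicate, with the line of equal values dashed. Alpha globin stays within 0.840 to 3.37 times Hbb-bs, while Hbb-bt runs from 0.961 to 15.5 times Hbb-bs.

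Embryonic globins were at or near 0: Hba-x and Hbb-bh2 were at 0 in all 12 libraries, Hbb-bh1 reached 0.0676 RPKM and Hbb-y 0.0487 RPKM. Defining red cell and erythroblast markers were also scarce. Of 10 such genes, only Hemgn, a nuclear protein of erythroid and earlier blood cells, reached 1 RPKM in 3 libraries. In each library 7 to 10 of the 10 lay above 0, and their sum was 3.32 to 5.61 RPKM in ABX 5-FU against 2.52 to 3.32 RPKM in ABX, and 2.73 to 3.61 RPKM in Ctrl 5-FU against 3.20 to 4.18 RPKM in Ctrl. The highest sum was that of ABX 5-FU replicate 3 and the next that of Ctrl replicate 1, the pair with the most Hbb-bs and alpha globin. The anion exchanger gene Slc4a1 was at 1.44 RPKM in the first and 0.292 RPKM in the second, and at 0 to 0.0912 RPKM in the other 10. Alas2, the erythroid enzyme that starts heme synthesis, was at 0.208 and 0.332 RPKM in that pair and at most 0.0501 RPKM elsewhere. The part of red cell RNA in the globin values of the pair was not tested beyond leaving the pair out. Hbb-bt was at 159 RPKM in ABX 5-FU replicate 3 and at 99.3 to 132 RPKM in the other 5 libraries after 5-FU. In Ctrl replicate 1 it was at 53.6 RPKM, against 11.3 and 24.5 RPKM in the other Ctrl libraries. Both libraries of the pair thus had the highest Hbb-bt value of their group.

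The other markers gave single values under the filter. Rhag, a red cell membrane ammonium channel, was at 1.07, 0.883 and 1.02 RPKM in ABX 5-FU against 0.291, 0.215 and 0.228 RPKM in ABX, and at 0.987, 0.473 and 0.577 RPKM in Ctrl 5-FU against 0.264, 0.219 and 0.122 RPKM in Ctrl. It lay above in every 5-FU library and was too low to be tested. Ermap, an erythroid membrane protein, was at 0.260 to 0.375 RPKM in Ctrl and at most 0.103 RPKM in the other 9 libraries. Epb42, a red cell membrane skeleton protein, stayed between 0.119 and 0.469 RPKM, while Rhd and Kel were at most 0.170 RPKM.

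Car2 (chr3:14886273-14900770, plus strand), a carbonic anhydrase that is active in red cells and many other cell types, fell after 5-FU. It was at 87.6, 96.7 and 80.9 RPKM in ABX 5-FU against 128, 118 and 133 RPKM in ABX, and at 68.3, 82.2 and 61.2 RPKM in Ctrl 5-FU against 115, 123 and 123 RPKM in Ctrl. All 5-FU libraries lay below all libraries without 5-FU. The change was -0.51 ± 0.11 (adjusted p = 0.00500) with antibiotics and -0.77 ± 0.11 (adjusted p = 0.00124) without them. Car2 remained called in both under every alternative, and the difference between the changes was not called (0.26 ± 0.15, adjusted p = 0.662).

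Car1 (chr3:14766216-14808368, minus strand), the carbonic anhydrase that is abundant in red cells, was near 0 except in Ctrl. It was at 0.0926, 0.0306 and 0.0166 RPKM in ABX 5-FU against 0.0154, 0.115 and 0.00572 RPKM in ABX, and at 0.0128, 0.00403 and 0.0314 RPKM in Ctrl 5-FU against 0.234, 0.483 and 1.72 RPKM in Ctrl. The Ctrl libraries lay above the other 9 and differed widely among themselves, and the other 9 values rest on about 0.3 to 4.1 reads each. In a fit without the filter the change was -0.75 ± 0.23 in Ctrl 5-FU against Ctrl (adjusted p = 0.108) and -0.71 ± 0.23 in ABX against Ctrl (adjusted p = 0.354), and neither was called. A pseudogene, Gm16399, lies within Car1.

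Antibiotics alone gave few calls among all genes, and of the 10 genes Klf1 alone was called, lower with antibiotics on the average of both 5-FU states. The comparison asks how HSCs of antibiotic-treated mice differ at steady state and on day 12 after 5-FU. In ABX against Ctrl, 0 of the 9 genes were called by limma (2 of them had an unadjusted p under 0.05), where 0.0702% of all genes were called, and the groups did not overlap for 2 of the 9, where they did not for 22.1% of all genes. In ABX 5-FU against Ctrl 5-FU, 0 of the 9 were called (3 had an unadjusted p under 0.05), where 0.117% of all genes were, and the groups did not overlap for 1 of the 9, where they did not for 21.2% of all genes. Averaged over both 5-FU states, 1 of the 9 was called, where 2.39% of all genes were.

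That gene was Klf1, which averaged 0.604 ± 0.262 RPKM in ABX against 2.84 ± 0.421 RPKM in Ctrl, and 2.19 ± 0.605 RPKM in ABX 5-FU against 5.23 ± 3.02 RPKM in Ctrl 5-FU. In both 5-FU states the antibiotic libraries were below those of the controls without overlap, as were 9.06% of all genes in ABX against Ctrl and 9.67% in ABX 5-FU against Ctrl 5-FU. The averaged change was -1.07 ± 0.19 (adjusted p = 0.0208). It lost its call, at -1.02 to -1.14, without ABX replicate 2, ABX 5-FU replicate 1, ABX 5-FU replicate 2 or the pair with the most Hbb-bs, and with no filter, with adjusted p-values of 0.0511 to 0.0721. The single comparisons were -1.27 ± 0.26 in ABX against Ctrl (adjusted p = 0.0846) and -0.88 ± 0.26 in ABX 5-FU against Ctrl 5-FU (adjusted p = 0.157). Without Ctrl 5-FU replicate 1 the first was called, at -1.27 (adjusted p = 0.00901), and the second shrank to -0.51 (adjusted p = 0.188). The depth of the ABX libraries was below that of the Ctrl libraries, and its part in this was not tested.

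Gata1 averaged 0.553 ± 0.0720 RPKM in ABX against 1.51 ± 0.559 RPKM in Ctrl, without overlap, and 2.83 ± 0.300 RPKM in ABX 5-FU against 3.90 ± 1.45 RPKM in Ctrl 5-FU, with overlap. Its averaged change of -0.49 ± 0.13 was not called (adjusted p = 0.0690), but it was with a pseudocount of 0.1 (-0.82, adjusted p = 0.0426) or 0.01 (-0.89, adjusted p = 0.0403), in TPM (-0.81, adjusted p = 0.0308) and with the library index as a block (-0.49, adjusted p = 0.0405). For Hbb-bt, the change was 0.43 ± 0.40 in ABX against Ctrl (adjusted p = 0.590) and 0.34 ± 0.40 in ABX 5-FU against Ctrl 5-FU (adjusted p = 0.729). The other globins, Epor, Gfi1b and Car2 were not called in any comparison of antibiotics, and for 9 of 9 tested genes the interaction was not called, as for all but 0.0117% of all genes (adjusted p of 0.662 to 0.973, 0 with an unadjusted p under 0.05).

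The order of the group means differed between the genes. Klf1 was lowest in ABX, then ABX 5-FU, then Ctrl, and highest in Ctrl 5-FU, and of the neighbours in that order only ABX 5-FU and Ctrl overlapped. Gata1 and Hbb-bt had both 5-FU groups above both others, and ABX 5-FU and Ctrl 5-FU overlapped for each. Epor had the same order of 5-FU states, at 6.91 ± 2.19 RPKM in ABX 5-FU and 7.76 ± 5.16 RPKM in Ctrl 5-FU, which overlapped, above 2.61 ± 0.345 RPKM in ABX and 3.10 ± 0.869 RPKM in Ctrl, which overlapped too. Gfi1b was lowest in ABX 5-FU (7.24 ± 0.960 RPKM), then Ctrl 5-FU (9.47 ± 1.28 RPKM), ABX (10.1 ± 0.731 RPKM) and Ctrl (12.0 ± 1.36 RPKM), and each overlapped its neighbour. Car2 had its 5-FU groups below, at 88.4 ± 7.94 RPKM in ABX 5-FU and 70.6 ± 10.7 RPKM in Ctrl 5-FU, which overlapped, and the others above, at 126 ± 7.63 RPKM in ABX and 120.4 ± 5.07 RPKM in Ctrl, which also overlapped.

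**Figure D4:**
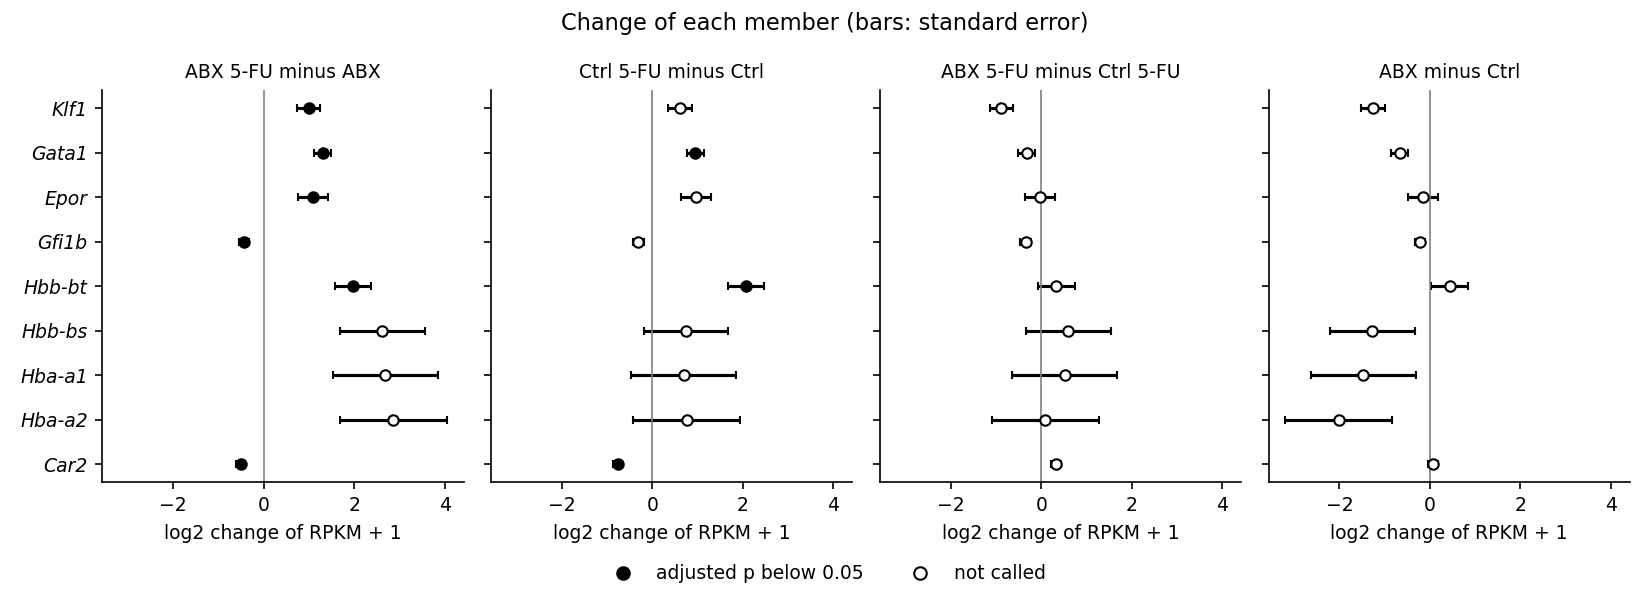
Log2 change of RPKM + 1 (points) with SE (bars) of the 9 tested genes in ABX 5-FU minus ABX, Ctrl 5-FU minus Ctrl, ABX 5-FU minus Ctrl 5-FU and ABX minus Ctrl, filled where the adjusted p is below 0.05. Gata1, Hbb-bt and Car2 are filled in both 5-FU panels, none is filled in the antibiotic panels, and the bars of Hbb-bs and the alpha genes are the widest (SE 0.94 to 1.19).

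The surrounding red cell program was described with lists averaged over both antibiotic states, beside a background in which 20.2% of all genes were called higher, 23.4% lower and the median change was -0.0046. That split depends on the scale: 1726 genes were higher and 2002 lower in RPKM, and 3214 higher and 977 lower in TPM. Genes under the filter in most libraries could not be called, so each count covers only the genes that passed. Of the called genes below, Lyn and Gp1bb reached 1 RPKM in 5-FU libraries only. Klf3 did so in ABX replicate 1 and in 5-FU libraries. These genes passed the filter through the same high values after 5-FU that made them called higher, which favours the higher counts of their lists. Each remained called in every alternative in which it was tested. Among the erythroid transcription factors and their partners, 6 of the 14 tested were called higher and 1 lower, with a median of 0.083. Besides Gata1 and Klf1 these were Gata2 (0.37 ± 0.05), a stem cell factor of the same family, the progenitor factor Myb (0.35 ± 0.09), the globin switching repressor Bcl11a (0.27 ± 0.05) and Klf3 (0.38 ± 0.08), a repressor that binds the same boxes as Klf1, while the lower one was Gfi1b.

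Of 10 tested genes of erythropoietin receptor signalling, 5 were called, each higher, with a median of 0.22. They were Epor, the transcription factor Stat5b (0.38 ± 0.05), the kinase Lyn (0.31 ± 0.05), and the negative regulators Ptpn6 (0.25 ± 0.08) and Sh2b3 (0.35 ± 0.10). Ptpn6 was not called in 6 of the 12 omissions of single libraries or with no filter, with adjusted p-values of 0.05001 to 0.0636, and Sh2b3 lost its own without Ctrl replicate 1 and ABX 5-FU replicate 3 (adjusted p = 0.0559). Red cell membrane and surface genes had 5 of 5 tested called higher, of 17 listed, with a median of 0.47. These were the water channel gene Aqp1 (0.85 ± 0.20), Icam4 (0.49 ± 0.18), Cd24a (0.47 ± 0.08), Gypc (0.39 ± 0.05) and Epb41 (0.25 ± 0.05). The blood group protein gene Icam4 and Aqp1 were highest in Ctrl 5-FU replicate 1, at 25.0 and 12.2 RPKM. With single libraries left out Icam4 was not called in 8 of 12 cases, nor in 3 of 8 other alternatives, with adjusted p-values of 0.0519 to 0.147, and its change was 0.31 (adjusted p = 0.0426) without Ctrl 5-FU replicate 1. Without that library and ABX 5-FU replicate 1, Aqp1 was at 0.57 and remained called. Cd24a was also higher with antibiotics on average (0.43 ± 0.08, adjusted p = 0.0248), at 84.2 to 99.7 RPKM in ABX 5-FU against 50.1 to 65.8 RPKM in Ctrl 5-FU and 53.4 to 61.6 RPKM in ABX against 45.6 to 52.5 RPKM in Ctrl.

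Heme and iron genes were mixed: of 10 tested, 2 were called higher, among them Tfr2, a second transferrin receptor (0.64 ± 0.07), and 1 lower, the heme synthesis enzyme gene Alad (-0.35 ± 0.07). The median was 0.14. Late erythroblast genes had 2 of 8 higher and 2 lower, with a median of 0.099: the mitophagy receptor gene Bnip3l (0.48 ± 0.05) and Bpgm (0.15 ± 0.05), which makes the bisphosphoglycerate that loosens oxygen from hemoglobin, were higher, and Hemgn (-0.26 ± 0.06) and Car2 lower. Bpgm was not called in 4 of the 12 omissions (adjusted p of 0.0571 to 0.0612), nor Hemgn in TPM (-0.20, adjusted p = 0.0972). Among carbonic anhydrases 3 were tested, of which Car2 and Car9 (-0.34 ± 0.07) were lower.

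Megakaryocyte genes that share Gata1 and Gfi1b as regulators had 7 of 13 tested called higher and 1 lower, with a median of 0.46. Selp (2.34 ± 0.12), the platelet adhesion protein P-selectin, was at 12.9 to 14.2 RPKM in ABX 5-FU against 1.12 to 1.43 RPKM in ABX, and at 14.1 to 15.5 RPKM in Ctrl 5-FU against 1.77 to 3.99 RPKM in Ctrl. Others were Gp1ba (1.16 ± 0.15), Gp1bb (0.86 ± 0.20) and Vwf (1.08 ± 0.14), which serve platelet adhesion, Itga2b (0.71 ± 0.15), Plek (0.46 ± 0.10) and the factor Fli1 (0.24 ± 0.05). Itga2b was at 29.7 RPKM in Ctrl 5-FU replicate 1, the library with the highest Klf1, Gata1 and Epor values, and its part in these was tested only by leaving that library out.

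**Figure D5:**
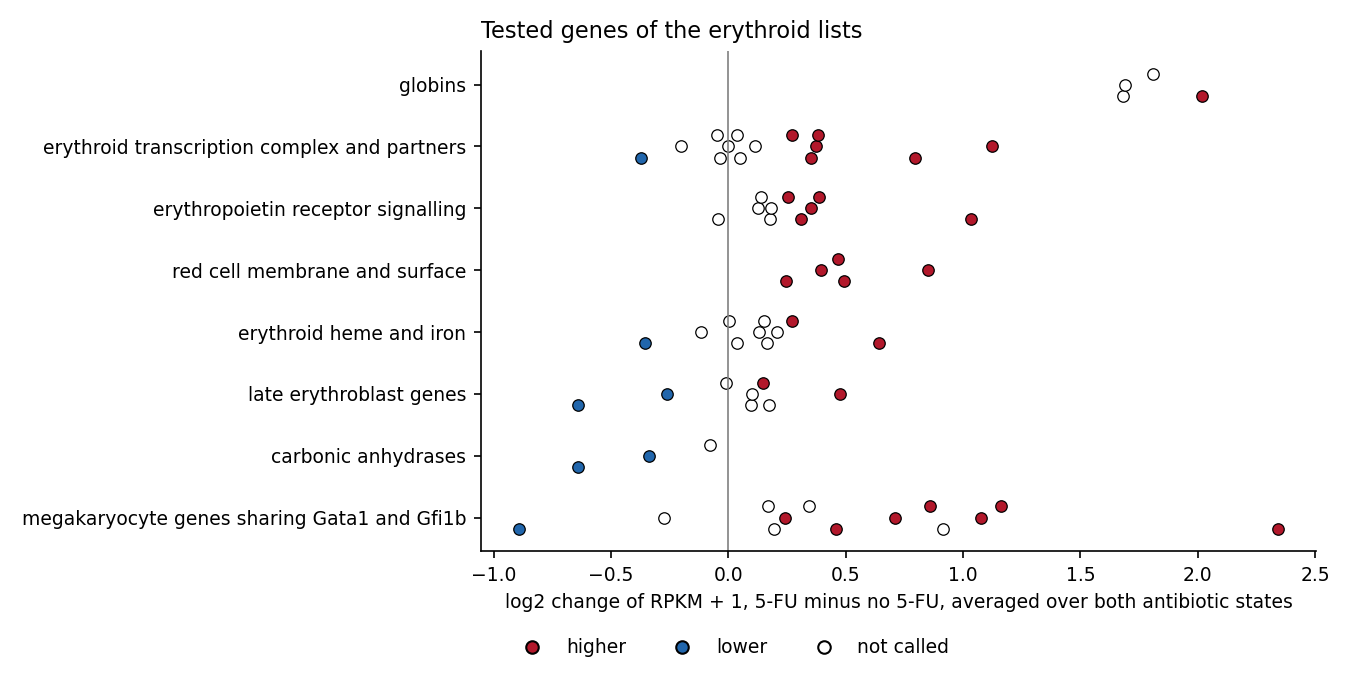
Log2 change of RPKM + 1 after 5-FU, averaged over both antibiotic states, for each tested gene (point) of 8 lists, red where called higher, blue where called lower and open where not called. The 5 red cell membrane genes that passed the filter are all red, and the 3 uncalled globins lie at 1.68 to 1.81.

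Profiles most like those of the called genes were sought as the smallest root mean square difference in centred log2(RPKM + 1) over the 12 libraries, among 7221 genes. For Gata1 they were Plac8 (0.18), the endothelial and stem cell adhesion gene Esam (0.21) and Hist1h2bc (0.22), where Gata1 itself varied by 0.66 around its mean. Klf1 was most like the integrin genes Itgb3 (0.34) and Itga2b (0.40) and Sdpr (0.38), where it varied by 0.74. For Hbb-bt they were the leukocyte membrane gene Cd53 (0.48), the chemokine gene Ccl9 (0.53) and Lgals1 (0.54), beside its own 1.13. Car2 was close to the serine synthesis gene Phgdh (0.11), Rbbp7 (0.13) and Foxa3 (0.14), beside 0.36. The nearest to Epor were the basement membrane collagen gene Col4a1 (0.20), Hist1h2bc (0.23) and Tcn2 (0.23), beside 0.65, and the nearest to Gfi1b were Slc24a5 (0.11), Praf2 (0.12) and the folate carrier gene Slc19a1 (0.12), beside 0.27.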

How the data were processed

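RNA-seq libraries of 12 sorted HSC samples (SMART-Seq v4 and Nextera XT, per the labels) were processed by the authors. STAR 2.5.3a, Partek and the build mm10 are listed in the submitters' processing notes. Strand setting, counting rule and annotation release are not given there. The authors deposited 1 table of RPKM values for 46986 features. The value 0.0001 was read as 0. Coordinates are those of the table, with the end given as its stop less 1.

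Relative depth came from the step that 1 read makes in low values of genes with 1 transcript. Between 38.3% and 43.8% of 2874 to 4051 low values a library were within 0.05 of a whole read, which is too small a share to recover reads, and count models were not used. The read numbers given for single genes come from this depth and from the longest coding transcript of the gene. They are rough estimates and not recovered counts.

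The 8553 genes that reached 1 RPKM in 3 or more libraries were fitted as log2(RPKM + 1) with limma 3.58.1 in R 4.3.3. The fit had 4 group means, 8 residual degrees of freedom and an empirical Bayes prior of 3.34 degrees of freedom that followed the mean level. Tests were two-sided, with Benjamini-Hochberg adjustment in each of 7 comparisons. An added pseudocount understates the change of low genes. A permutation test of 3 against 3 cannot go below 0.1 and was not run. The fit was tested on simulated data. All 10 genes are named in every comparison, with the called genes of 8 lists, every red cell marker, and the 3 nearest profiles of each called gene. Some genes of the lists enter the counts and sums but are not reported here by name. These genes and lists were chosen with earlier results of these data known. Alternatives were other pseudocounts, filters and TPM, no intensity trend, the library index as a block, leaving out each library in turn, and 2 pairs left out that were chosen after seeing the data. Sequences came from GENCODE M21 and RefSeq GRCm38.p6.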

Additional observations from a re-analysis of the deposited data

Results flagged for a closer look

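Among the genes of the lists, 2 had all 3 ABX libraries above all 3 Ctrl libraries and all 3 ABX 5-FU libraries below all 3 Ctrl 5-FU libraries. Of all 8553 tested genes, 22.1% did not overlap between ABX and Ctrl and 21.2% between ABX 5-FU and Ctrl 5-FU, in either direction. The share of all genes with both separations was not determined, so the count of 2 has no background beside it. Both genes were picked by this pattern. Cbfa2t3, a corepressor of the Tal1 complex, was at 2.26 to 2.501 RPKM in ABX against 1.89 to 2.12 RPKM in Ctrl, and at 1.96 to 2.16 RPKM in ABX 5-FU against 2.28 to 2.66 RPKM in Ctrl 5-FU. Its interaction was -0.34 ± 0.10 (log2, adjusted p = 0.505, not called). Fli1, a megakaryocyte factor, was at 1.67 to 1.89 RPKM in ABX against 1.40 to 1.52 RPKM in Ctrl, and at 1.84 to 2.01 RPKM in ABX 5-FU against 2.08 to 2.37 RPKM in Ctrl 5-FU. Its interaction was -0.32 ± 0.09 (adjusted p = 0.505, not called). None of the 10 erythroid genes had this pattern.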

How the results depend on the processing

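No paired analysis was possible because the labels give no replicate number that links the groups. Among the log2 changes of the 9 tested genes, 1197 alternative values kept direction and call, 34 gained a call, 23 lost one, and 28 changed sign, each of them a value not called with all libraries. Among genes of the lists, 771 alternative values of the change after 5-FU kept their call and 50 lost it. What caused these changes was not tested.

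With a minimum of 5 RPKM, where fewer genes were tested, 1460 genes were called in ABX 5-FU against ABX (2586 in the report's fit), 1184 in Ctrl 5-FU against Ctrl (1846), 22 in ABX 5-FU against Ctrl 5-FU (10), 15 in ABX against Ctrl (6), 0 for the interaction (1) and 1984 for 5-FU averaged (3728). Members called after 5-FU were then 2 globins, 3 transcription factors, 2 of erythropoietin signalling, 2 late erythroblast genes, 1 carbonic anhydrase and 4 megakaryocyte genes. With no filter the counts were 11 in ABX against Ctrl, 7 for the interaction and 90 for antibiotics averaged (204), and 4 carbonic anhydrases were called. In TPM they were 47, 13 and 359 for ABX 5-FU against Ctrl 5-FU, ABX against Ctrl and antibiotics averaged, with 6 heme and iron genes and 2 globins called. With the index as a block they were 22, 20 and 339, and 0 for the interaction. Pseudocounts of 0.1 and 0.01 gave 2 called globins. Summed globins were 1802 TPM in ABX 5-FU against 256.1 TPM in ABX, and 1145 TPM in Ctrl 5-FU against 704.2 TPM in Ctrl. The median gene rose by 0.148 in TPM in ABX 5-FU against ABX and by 0.177 in Ctrl 5-FU against Ctrl, so changes in TPM are read against these. For antibiotics averaged, 130 genes were higher and 229 lower in TPM, and 135 and 69 in RPKM.

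Leaving out 1 library, or 1 of the 2 pairs, gave 1620 to 2879 calls in ABX 5-FU against ABX, 941 to 2080 in Ctrl 5-FU against Ctrl, 3 to 28 in ABX 5-FU against Ctrl 5-FU, 1 to 25 in ABX against Ctrl, 0 to 3 for the interaction, 6 to 301 for antibiotics averaged and 1 to 4 called globins. The log2 changes whose sign turned, none of them called with all libraries, ranged as follows. In ABX 5-FU against Ctrl 5-FU, Epor ran from -0.32 to 0.42, Hbb-bs from -0.32 to 1.18, Hba-a1 from -0.58 to 1.48 and Hba-a2 from -1.04 to 1.01. In ABX against Ctrl, Hbb-bt ran from -0.10 to 0.97. In Ctrl 5-FU against Ctrl, Hba-a1 ran from -0.12 to 2.13 and Hba-a2 from -0.0755 to 2.20, lowest without Ctrl replicate 3 and highest without Ctrl replicate 1. For the interaction, Epor ran from -0.16 to 0.58, Hbb-bt from -0.75 to 0.44, Hbb-bs from -0.22 to 2.49, Hba-a1 from -0.54 to 2.95 and Hba-a2 from -0.46 to 3.03. For antibiotics averaged, Epor ran from -0.24 to 0.13, Hbb-bs from -0.80 to 0.25 and Hba-a1 from -1.02 to 0.24. Depth limits the low values: in the ABX libraries, Klf1, Gata1 and the alpha globins rested on about 16.9 to 90.2 reads each.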
